A study of Homo sapiens with 60 samples.

Results

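HCC2935 is a lung adenocarcinoma cell line with a mutant epidermal growth factor receptor (EGFR), and the question put to the data was which of its genes had not come back to the untreated level 10 days after the EGFR inhibitor osimertinib was taken away. The comparison used 6 of 60 RNA-seq libraries, 3 of the long washout and 3 of the DMSO control. A gene was counted as not returned when it was called against DMSO both in drug-tolerant persisters (DTPs) and after the long washout, in the same direction. By that definition 4766 of 14025 genes tested in both comparisons had not returned, which is 34.0%, with 2449 above (17.5%) and 2317 below (16.5%) the DMSO level. The series holds 4 EGFR-mutant lines (HCC2935, PC9, HCC827 and H1975), 5 arms in each and 3 biological replicates in each arm.

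The long washout cells had been kept in 500 nM osimertinib for 21 days, washed, and then grown without the drug for 10 days, by which time the cells were dividing again. The DTPs were harvested at the end of the 21 days, and the short washout cells 24 h after the drug was removed. The DMSO cells were the parental line, grown without drug for 21 days and then given the solvent for 24 h, and the acute cells were the same parental line given 500 nM osimertinib for 24 h. No DMSO group with the extra 10 days of culture was analysed here, so time in culture and earlier exposure to the drug cannot be told apart in the comparison. Levels are given as CPM, counts scaled by library size and TMM factors on a common scale over the 15 HCC2935 libraries, and changes as log2 fold changes with their standard error (SE) from edgeR's quasi-likelihood test, called at an adjusted p under 0.05.

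Signalling from EGFR runs through RAS, RAF, MEK and ERK, and ERK switches on both growth genes and its own inhibitors, such as the phosphatase DUSP6 and the SPRY proteins. Cells that outlive an EGFR inhibitor divide slowly or not at all, and in adenocarcinoma lines this state has often been described with more extracellular matrix, more YAP and TEAD activity and fewer markers of the lung epithelium. When the drug is removed such cells can resume division, and a cell state that stays changed after that is commonly called a memory of the treatment.

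The HCC2935 libraries held 18.6M to 25.6M estimated counts (M, 1e6), and between 4.65% and 9.07% of these came from mitochondrial genes. Each of the 15 libraries was nearest to its own line, with a Spearman correlation of 0.942 to 0.997 against at most 0.884 with another line. Of 12 tested markers of epithelial lung adenocarcinoma 6 were lower after the long washout, NKX2-1 and EPCAM among them. KRT7, KRT8, KRT18 and CDH1 were not called, with CDH1 (E-cadherin) at 1467 ± 88.2 CPM under DMSO and 1559 ± 125 CPM after the long washout (SD, n = 3). SFTPB, a surfactant gene expressed in alveolar type II cells, was low, at 0.249 to 1.61 CPM under DMSO and 0 to 0.196 CPM after the long washout. Long washout replicate 1 lay nearer to the DTPs than the other replicates did: its median absolute difference from the DTP mean was 0.16 on the log2(CPM + 1) scale, against 0.24 and 0.25 for replicates 2 and 3.

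After 10 days without drug, 5663 of 14199 genes tested (39.9%) differed from DMSO. Of these, 2977 were higher (21.0%) and 2686 lower (18.9%), and 2067 differed by at least 2-fold, 1498 of them upward and 569 downward. The CPM values of the groups did not overlap in 7518 genes (52.9%), with the long washout higher in 3747 (26.4%) and lower in 3771 (26.6%). In the DTPs themselves 7455 of 14212 genes (52.5%) were called, 3592 higher (25.3%) and 3863 lower (27.2%). Of 7382 genes called in DTPs and tested in both comparisons, 64.6% had not returned, with 69.6% of those that were higher in DTPs and 60.0% of those that were lower. The 2 comparisons share the DMSO libraries. Without long washout replicate 1 the count against DMSO was 4815 and the count of genes not returned 4001.

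**Figure D1:**
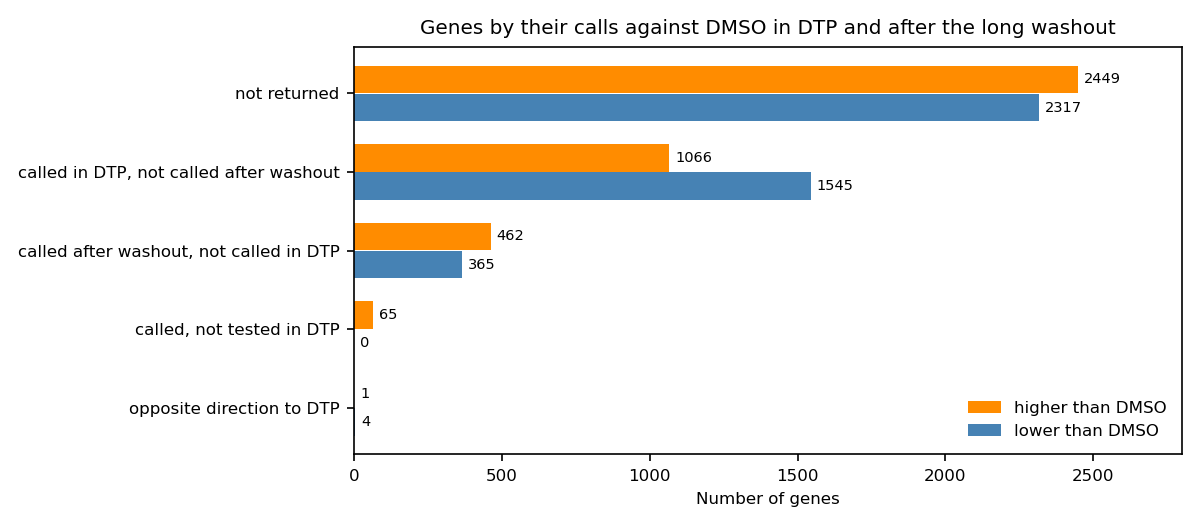
Number of genes (horizontal axis) in each class of calls against DMSO, with orange bars for genes higher and blue bars for genes lower than DMSO. The direction is that after the long washout, or that in DTPs for genes called in DTPs alone. The 2449 and 2317 genes that had not returned make the longest pair of bars, and 1066 and 1545 genes were called in DTPs but not after the long washout.

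The genes that had not returned were chosen by their calls in both comparisons, so their sizes are a description. The median log2 fold change of those above DMSO was 1.05 after the long washout and 1.13 in DTPs, and that of those below was -0.63 and -0.83. Genes called in DTPs but not after the long washout had medians of 0.26 and 0.59 where they were higher in DTPs and of -0.23 and -0.56 where they were lower. Compared with DTPs directly, 745 of 14429 genes (5.16%) were called after the long washout, 432 higher (2.99%) and 313 lower (2.17%). Among the 4766 genes that had not returned, 242 had moved back towards DMSO in that test, 51 had moved further away and 4440 were not called. The direct comparison with DTPs rested on single libraries: its count was 1837 without long washout replicate 1, 21 without replicate 2 and 17 without replicate 3, and it was 23, 49 and 517 without DTP replicates 1, 2 and 3. A gene not called against DTPs is therefore not shown to be at the DTP level. Of the single genes given with a call against DTPs, SCNN1B kept it in all 6 fits that left out a library and AXL in 4, while NKX2-1, SPDEF, AGR2, EPGN, MKI67, HK2, KRT5 and KRT81 kept it in 2 of the 6 and KRT13 in 1.

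Most collagen genes were above DMSO. The counts of this and the later lists are to be read beside 21.0% of all genes tested that were higher and 18.9% lower. Some lists hold genes that passed the filter on low counts through the long washout libraries, such as COL3A1. The direction of these genes was fixed by the filter, so the list counts and medians are a description. With at least 10 counts required in every library, 14 collagen genes were higher and 0 lower. Of 16 tested collagen genes, 15 were higher after the long washout and none was lower, with a median log2 fold change of 1.80 against 0.00 over all genes tested, and the median was 1.86 in DTPs. COL4A3 and COL4A4, named here after their values were seen, encode chains of the type IV collagen network of basement membranes and lie head to head on chromosome 2, at chr2:227164624-227314792 and chr2:226967360-227164488 on GRCh38.p14. Their RefSeq promoter windows, of 300 bases each around an annotated start on GRCh38.p14, overlap by 82 bases, and they are shown because both genes moved together.
COL4A3 promoter window, chr2:227164374-227164673, plus strand: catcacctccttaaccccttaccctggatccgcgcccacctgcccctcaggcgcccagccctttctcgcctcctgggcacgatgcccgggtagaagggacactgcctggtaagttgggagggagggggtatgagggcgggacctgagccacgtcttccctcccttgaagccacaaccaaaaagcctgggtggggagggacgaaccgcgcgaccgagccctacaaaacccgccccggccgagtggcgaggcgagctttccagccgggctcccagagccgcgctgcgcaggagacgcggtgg
COL4A4 promoter window, chr2:227164156-227164455, minus strand: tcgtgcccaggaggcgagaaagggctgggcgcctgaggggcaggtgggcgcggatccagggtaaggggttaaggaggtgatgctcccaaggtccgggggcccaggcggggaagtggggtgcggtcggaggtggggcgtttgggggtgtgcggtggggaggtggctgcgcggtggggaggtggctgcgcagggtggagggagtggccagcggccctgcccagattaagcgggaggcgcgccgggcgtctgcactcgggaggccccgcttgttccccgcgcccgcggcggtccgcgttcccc
Neither window held any of the motifs searched for on both strands, which were AP-1 (TGAGTCA), TEAD (GGAATG), the interferon response element (GAAANNGAAA), the E-box (CACGTG) and FOXO (TGTTTAC). Among 35116 RefSeq promoter windows these letters occur in 4.95%, 14.0%, 3.57%, 7.26% and 3.42%.

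COL4A3 stood at 1.37, 1.56 and 1.23 CPM under DMSO and at 138, 51.2 and 50.8 CPM in long washout replicates 1, 2 and 3. Every long washout library lay above every DMSO library, and replicate 1 was the highest of the 3. The difference was 57.8-fold, or 5.86 ± 0.46 on the log2 scale (SE, adjusted p = 1.84e-05, edgeR), and the DTP libraries were higher still, at 184, 289 and 175 CPM. COL4A4 gave 10.3, 13.5 and 6.16 CPM under DMSO and 499.8, 197 and 185 CPM after the long washout, a log2 difference of 4.89 ± 0.44 (adjusted p = 4.28e-05). The acute libraries already stood at 16.9 to 31.3 CPM for COL4A3 and at 31.9 to 57.5 CPM for COL4A4, between the DMSO and the DTP levels. The direct test against DTPs called neither gene (adjusted p = 0.0576 and 0.144).

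The fibrillar collagen gene COL3A1 was listed at 0.166, 0.378 and 0.237 CPM under DMSO and at 34.7, 6.11 and 16.0 CPM after the long washout, 6.18 ± 0.71 on the log2 scale. COL16A1 went from 1.38 ± 0.425 to 45.4 ± 14.1 CPM, COL4A1 from 110.1 ± 18.3 to 1227 ± 491 CPM, COL5A1 from 229 ± 31.2 to 1755 ± 529 CPM and COL12A1 from 56 ± 25.9 to 586 ± 130 CPM (SD, n = 3), and all 4 were called. COL13A1, the collagen that did not pass the test, was at 3.24 ± 0.943 CPM under DMSO and 3.47 ± 2.27 CPM after the long washout. Collagens are also made by fibroblasts, so the fibroblast markers were read beside them. Of 10 such markers 4 passed the filter on low counts, COL1A1 and COL1A2 were higher (COL1A2 lost its call without DMSO replicate 1 or long washout replicate 1), and the summed level of the list was 64.2 to 76.4 CPM under DMSO and 122 to 258 CPM after the long washout. Of the markers that failed the filter, DCN stood at 0.0158 and 0.112 CPM on average under DMSO and after the long washout, THY1 at 0 and 0.184 CPM, PDGFRA at 0.0554 and 0.455 CPM, FAP at 0.184 and 0.198 CPM and POSTN at 0 in all 6 libraries. PDGFRB was at 0 in the DMSO libraries and at 1.5, 0.0867 and 0.0978 CPM after the long washout. LUM (0.384 and 0.866 CPM) and ACTA2 (2.44 and 2.86 CPM) were tested and not called. The part of such cells in the collagen values was not tested.

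Mesenchymal genes and integrins moved with the matrix. Of 14 tested mesenchymal and epithelial-mesenchymal transition (EMT) genes 10 were higher and none lower, with a median log2 fold change of 2.1, and of 17 integrin and laminin genes 13 were higher and none lower, with a median of 0.60. LOX, which cross-links collagen, went from 0.416, 0.283 and 0.947 CPM to 36.3, 27.8 and 18.3 CPM (5.65 ± 0.40 on the log2 scale). VIM (vimentin) and FN1 (fibronectin) were also higher, at 28.8 ± 9.28 against 193 ± 74.0 CPM and at 5798 ± 606 against 21539.7 ± 6087 CPM. The EMT transcription factor ZEB1 was not called and was low in both groups, at 1.30 ± 0.501 and 0.962 ± 0.379 CPM. Among integrins, ITGB6, a partner of ITGAV in the receptor that activates latent TGF-beta, was at 96.1, 92.4 and 99.2 CPM under DMSO and at 886, 573 and 624 CPM after the long washout (2.86 ± 0.16, adjusted p = 3.32e-06).

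Targets of YAP and TEAD, the transcription factors of the Hippo pathway, were higher in 10 of 15 cases and lower in 1, with a median log2 fold change of 1.03 after the long washout and 0.89 in DTPs. ANKRD1 stood at 23.3, 29.7 and 12.2 CPM under DMSO and at 433, 399 and 263 CPM after the long washout, without overlap (4.08 ± 0.31, adjusted p = 1.62e-05). CCN2, a matricellular growth factor, was at 11.1, 17.9 and 10.8 CPM against 122, 47.7 and 41.2 CPM (2.41 ± 0.40, adjusted p = 0.00130). Of 18 TGF-beta and BMP genes 12 were higher and 2 lower. For both lists the share over all genes tested was 21.0% higher and 18.9% lower. Several TGF-beta and BMP genes are given here. They included the activin subunit INHBA, at 4.61 to 6.30 CPM under DMSO and 35.2 to 67.7 CPM after the long washout, its antagonist FST (3.14 ± 0.43 on the log2 scale, adjusted p = 0.000467) and, downward, BMP7 (-2.13 ± 0.26, adjusted p = 0.000215).

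**Figure D2:**
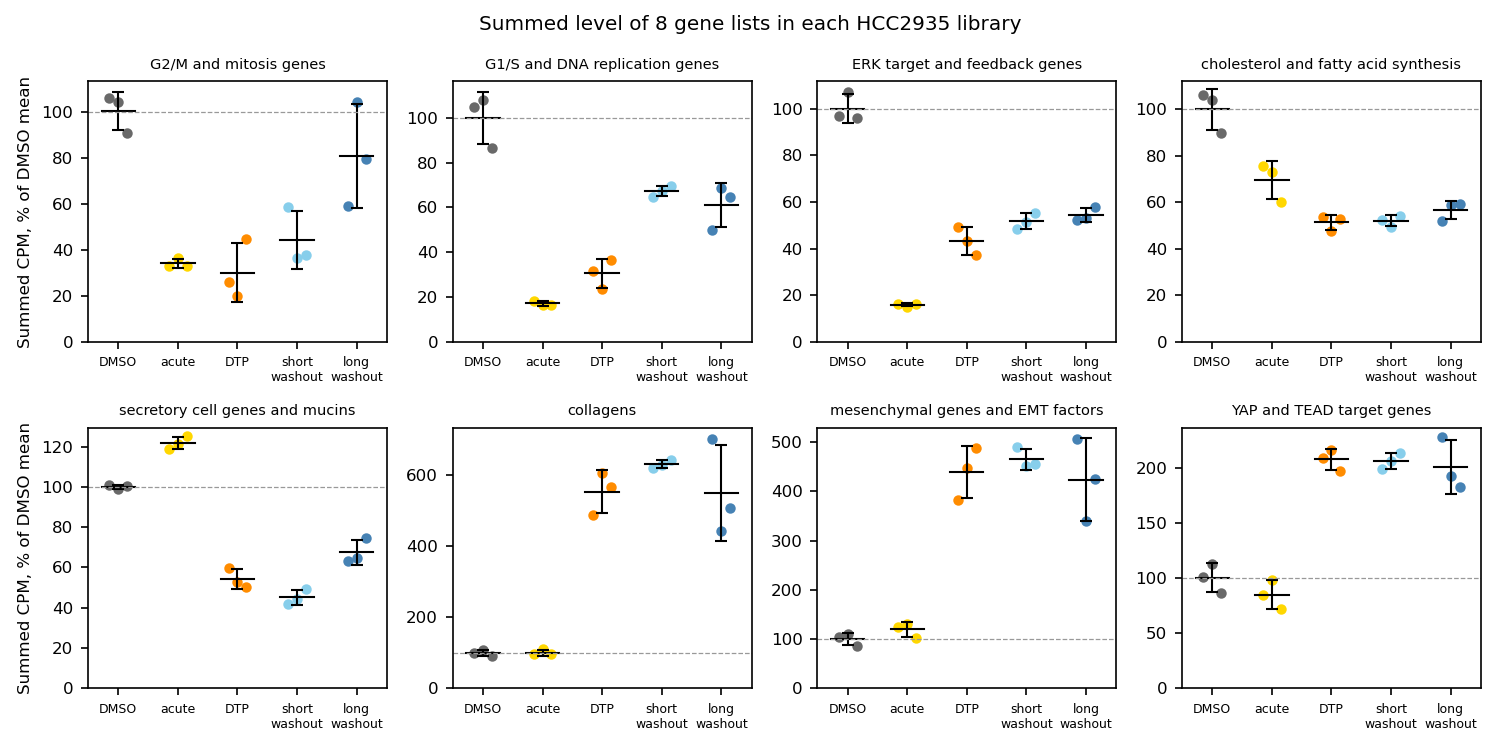
Summed CPM of 8 gene lists in each HCC2935 library, as a percentage of the DMSO mean (vertical axis) in each arm (horizontal axis). Points are libraries, and bars are the mean and SD of 3. Collagen and mesenchymal genes stood between 339% and 703% of the DMSO mean after the long washout, ERK targets between 52.4% and 57.9%, and G2/M genes at 59.0%, 104% and 79.3%.

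Some genes were all but silent under DMSO and passed the filter on low counts through the long washout libraries, so the increase is given as a description, with no test. ART4, which encodes a cell surface mono-ADP-ribosyltransferase family protein, had 0, 1 and 0 counts in the DMSO libraries and 162, 146 and 129 counts after the long washout. That is a ratio of 421, with a 95% counting interval of 75.2 to 16683, since the DMSO level rests on 1 count. The DTP libraries were at 6.23, 4.54 and 6.48 CPM and the long washout libraries at 6.41, 6.33 and 6.31 CPM. TCHHL1 and ANKRD34B rested on 2 and 1 DMSO counts, and their ratios were 201 and 203 with lower bounds of 55.2 and 36.0. KLHDC7B gave a ratio of 579 (103 to 22891) and was not tested in DTPs, where its libraries stood at 6.10, 0.0797 and 0.193 CPM. The integrin gene ITGA4 had 3 DMSO counts and a ratio of 105 (35.5 to 511). These intervals cover counting error alone. Other genes with few counts under DMSO entered the test through the same libraries, such as COL3A1, LOX, IGFBP5, FGF2, ABCB1, KRT5, MXRA5 and RNF150. Their differences from DMSO are a description as well, and those on a gene list are part of its counts and median.

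IGFBP5, a binding protein for insulin-like growth factors, was at 0.499, 0.566 and 0.237 CPM under DMSO and at 163, 42.8 and 33.1 CPM after the long washout. Replicate 1 was the highest (7.51 ± 0.78 on the log2 scale). The matrix protein gene MXRA5 (7.15 ± 0.67), the transcription factor gene ATOH8 (6.78 ± 0.30), RNF150 (6.66 ± 0.54) and the chemokine receptor gene ACKR3 (6.56 ± 0.67) followed. These increases are given by their size alone. Of the 16 largest genes that had not returned, 9 had a RefSeq promoter window. The window of IGFBP5 is shown as that of a gene above DMSO and the window of C9orf152 as that of a gene below, with motif matches in capitals.
IGFBP5 promoter window, chr2:216695500-216695799, minus strand: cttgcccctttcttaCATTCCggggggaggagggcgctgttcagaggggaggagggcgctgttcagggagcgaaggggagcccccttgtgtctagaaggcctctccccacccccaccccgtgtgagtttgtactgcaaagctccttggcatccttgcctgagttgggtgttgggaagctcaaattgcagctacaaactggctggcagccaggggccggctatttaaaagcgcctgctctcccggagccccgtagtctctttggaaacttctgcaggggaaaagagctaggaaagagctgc
C9orf152 promoter window, chr9:110208110-110208409, minus strand: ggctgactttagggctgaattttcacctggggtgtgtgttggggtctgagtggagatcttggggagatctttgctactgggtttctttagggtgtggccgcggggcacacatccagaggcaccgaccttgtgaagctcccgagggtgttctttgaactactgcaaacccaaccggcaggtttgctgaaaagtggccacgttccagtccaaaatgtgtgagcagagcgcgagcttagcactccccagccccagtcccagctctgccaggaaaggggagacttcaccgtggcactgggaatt
The IGFBP5 window held 1 TEAD match, on the strand opposite to the gene, and the C9orf152 window held none of the motifs.

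Several genes of the differentiated lung epithelium were lower, and none of the 12 tested adenocarcinoma markers was higher. NAPSA, the aspartic protease napsin A used to diagnose lung adenocarcinoma, was at 223, 214 and 175 CPM under DMSO and at 18.6, 8.15 and 6.60 CPM after the long washout, far below (-4.18 ± 0.34, adjusted p = 2.22e-05). Acute treatment had gone the other way, with 396, 398 and 255 CPM. NKX2-1, the lineage transcription factor of the lung, was at 149, 139 and 154 CPM under DMSO, at 94.8, 93.9 and 84.7 CPM in DTPs and at 53.7, 43.7 and 57.4 CPM after the long washout. It was lower than DMSO (-1.51, adjusted p = 1.92e-05) and lower than the DTPs as well (-0.83, adjusted p = 0.0189), although the second call was lost in 4 of the 6 fits that left out a library. FOXA1, another lineage factor, was at 155 to 161 CPM under DMSO and 62.3 to 71.4 CPM after the long washout (-1.26, adjusted p = 1.48e-05). The alveolar list, which holds FOXA1, NKX2-1 and NAPSA, split, with 6 of 14 tested genes lower and 3 higher. Its summed level was 170.1%, 152% and 182% of the DMSO mean in long washout replicates 1, 2 and 3. Over all genes tested 18.9% were lower and 21.0% higher. The surface glycoprotein gene CEACAM6 went from 5709, 5728 and 5410.3 CPM to 1922, 1366 and 1242 CPM (-1.89 ± 0.16, adjusted p = 3.12e-05), and EPCAM went from 608 ± 24.9 to 309 ± 38.5 CPM.

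Secretory genes were lower too, in 8 of 13 cases against 2 that were higher, beside 18.9% lower and 21.0% higher over all genes tested. The gel-forming mucin gene MUC5AC was at 16.2, 12.5 and 27.9 CPM under DMSO and at 0.316, 0.477 and 0.293 CPM after the long washout, the largest decrease under the rule for named genes (-5.67 ± 0.40, adjusted p = 9.7e-06). SPDEF, a transcription factor of goblet cells, was at 104, 107 and 69.3 CPM under DMSO, at 7.69, 4.03 and 5.80 CPM in DTPs and at 13.5, 23.8 and 28.8 CPM after the long washout. It was above the DTPs (1.91, adjusted p = 0.0221) but still below DMSO (-2.08 ± 0.26, adjusted p = 0.000294). AGR2, which encodes a protein disulfide isomerase needed for mucin folding, showed the same order, with 760.3, 752 and 651 CPM under DMSO, 73.1, 64.4 and 57.1 CPM in DTPs and 117, 219.6 and 220.2 CPM after the long washout. C9orf152 (-5.27 ± 0.31), SHE (-4.50 ± 0.38), CRACR2A (-4.02 ± 0.27), KRT78 (-4.36 ± 0.27) and MMP1, the interstitial collagenase (-3.80 ± 0.31), were further large decreases, each with an adjusted p of at most 2.67e-05. KRT6A, which can share reads with its close copy KRT6B, went from 114, 132 and 133 CPM to 5.89, 10.2 and 9.24 CPM (-3.90 ± 0.19, adjusted p = 1.68e-06). AMY1C was also among the 12 largest decreases (-4.09 ± 0.88, adjusted p = 0.00524), but the amylase copies are nearly identical and its counts are uncertain.

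**Figure D3:**
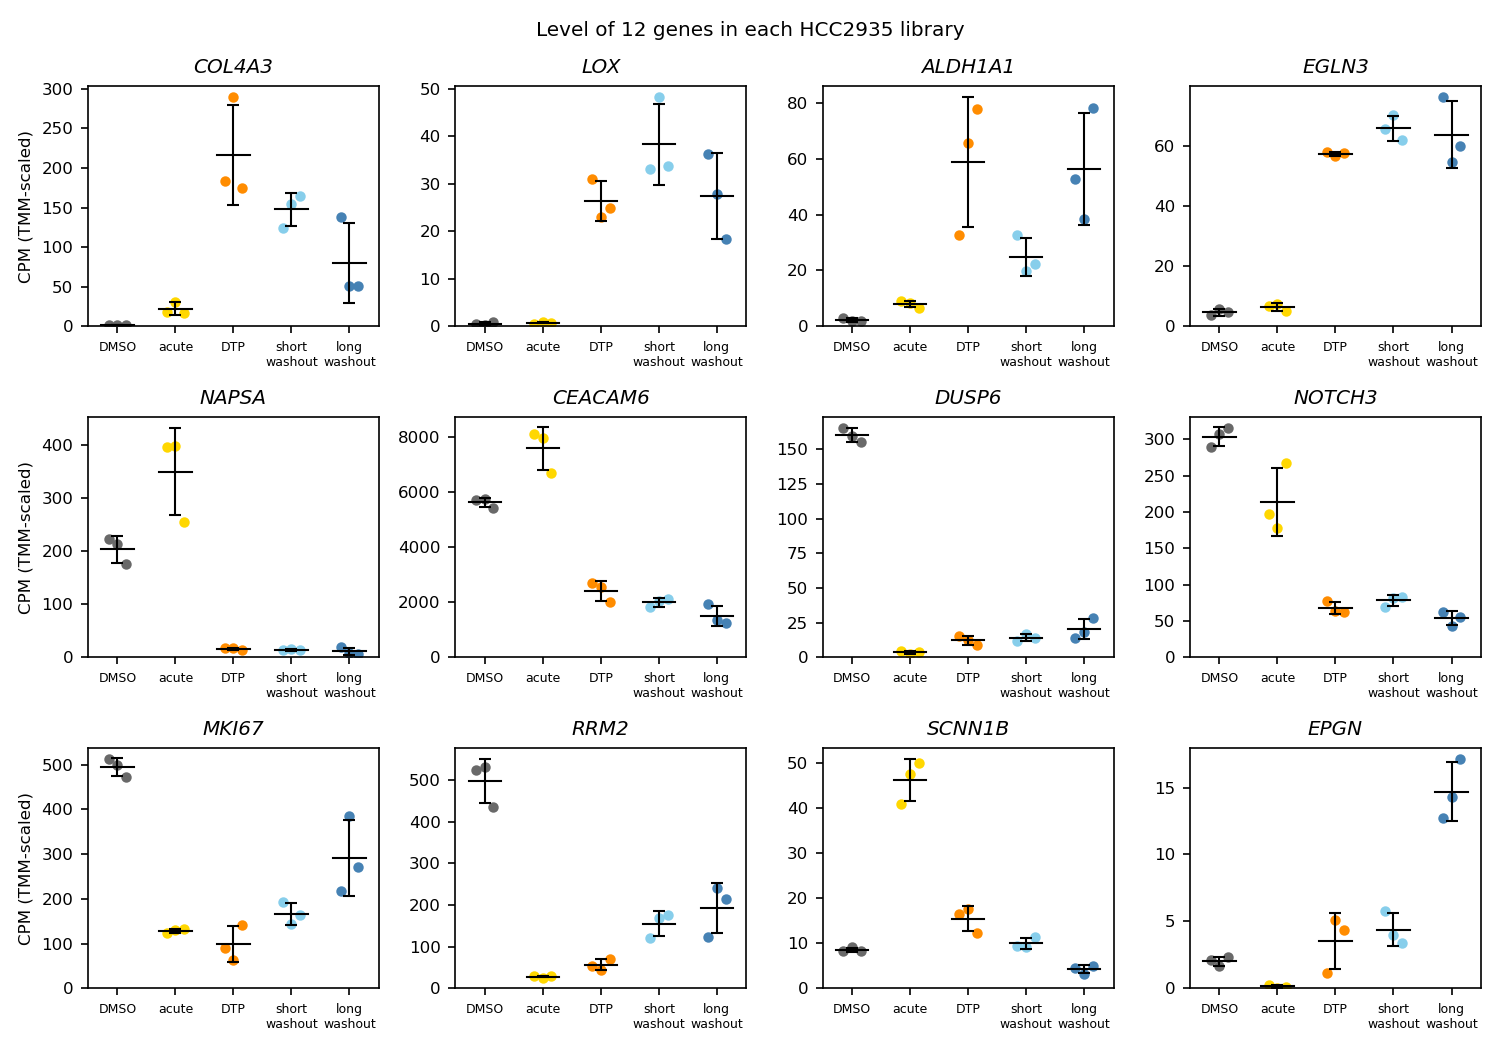
CPM of 12 genes (vertical axis, from 0) in the 15 HCC2935 libraries by arm (horizontal axis). Points are libraries, and bars are the mean and SD of 3. COL4A3, LOX, ALDH1A1 and EGLN3 stayed above and NAPSA, CEACAM6, DUSP6 and NOTCH3 below DMSO after the long washout, MKI67 and RRM2 lay between the DTP and DMSO levels, SCNN1B fell below DMSO, and EPGN was highest after the long washout.

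Target genes of the pathway that the drug blocks stayed low. Of 19 ERK target and feedback genes 12 were lower than DMSO and none was higher, with a median log2 fold change of -1.0 after the long washout and -1.56 in DTPs. DUSP6 was at 165, 159.7 and 155 CPM under DMSO, at 4.73, 2.38 and 3.56 CPM after acute treatment, at 15.5, 12.4 and 8.94 CPM in DTPs and at 14.2, 17.9 and 28.2 CPM after the long washout. All long washout libraries stayed far below DMSO (-2.99 ± 0.22, adjusted p = 1.18e-05), and the difference from DTPs did not pass the test (0.70, adjusted p = 0.166). The ETS factor gene ETV4 (-2.10 ± 0.26), the phosphatase gene DUSP5 (-1.98 ± 0.21) and the inhibitor gene SPRY4 (-1.35 ± 0.26) were lower as well. CCND1 (cyclin D1) was at 1501, 1641 and 1372 CPM under DMSO and at 595, 651 and 720.4 CPM after the long washout (-1.19, adjusted p = 5.73e-05). PHLDA1 had been lower in DTPs (-1.24, adjusted p = 5.19e-05) and was not called after the long washout (-0.32, adjusted p = 0.176).

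Among the ERBB receptors EGFR was higher and ERBB3 lower. EGFR was at 614, 647 and 573 CPM under DMSO and at 913, 855 and 929.9 CPM after the long washout, a modest but separate increase (0.56 ± 0.10, adjusted p = 0.00153). ERBB3, the kinase-impaired partner receptor, went from 158, 161 and 157 CPM to 66.4, 61.4 and 55.1 CPM (-1.37 ± 0.10, adjusted p = 1.23e-05). Its ligand NRG1 was at 1.99 to 3.82 CPM under DMSO and 8.70 to 12.4 CPM after the long washout (1.76 ± 0.28, adjusted p = 0.00106). EPGN (epigen), an EGFR ligand, was at 2.12, 1.65 and 2.32 CPM under DMSO, at 1.16, 5.10 and 4.35 CPM in DTPs and at 12.7, 14.3 and 17.1 CPM after the long washout. It was called against DMSO (2.86 ± 0.22, adjusted p = 1.75e-05) and against DTPs (2.04, adjusted p = 0.0324) but not in DTPs against DMSO. ERBB4 passed the test as well (1.48 ± 0.52, adjusted p = 0.0470), but lost its call under most alternatives. In all, 5 of 16 tested members of the family were higher and 3 lower, beside 21.0% and 18.9% of all genes tested.

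A list of receptor kinases that can stand in for EGFR, with ligands and with IRS1, IRS2 and IGFBP3, had 8 of 15 tested members higher and 1 lower. Over all genes tested the shares were 21.0% and 18.9%. FGF2 went from 0.748, 0.566 and 0.237 CPM to 7.83, 11.9 and 6.26 CPM (4.04 ± 0.42 on the log2 scale). The receptor gene AXL was at 34.6, 35.1 and 17.1 CPM under DMSO and at 50.4, 36.1 and 45.9 CPM in DTPs, and reached 82.1, 98.6 and 91.2 CPM after the long washout. It was called against DMSO (1.65, adjusted p = 0.000562) and against DTPs (1.03, adjusted p = 0.0153). IRS1, the adaptor of the insulin and insulin-like growth factor receptors, went from 193, 194 and 197 CPM to 61.0, 53.5 and 50.6 CPM (-1.82 ± 0.10, adjusted p = 2.96e-06). MET, at 438 ± 13.7 and 375 ± 52.4 CPM, was not called, and neither were the receptor genes IGF1R, INSR, FGFR1 and NTRK2.

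Proliferation genes lay nearer to DMSO after the long washout than in DTPs, judged by their medians. In DTPs all 18 tested genes of G2/M and mitosis and all 18 of G1/S and DNA replication had been lower than DMSO, with median log2 fold changes of -1.54 and -1.51. After the long washout 4 of the G2/M genes and 14 of the G1/S genes were still lower and none was higher, with medians of -0.09 and -0.57. Against DTPs 14 of the G2/M genes and 12 of the G1/S genes were higher, but none of either list without long washout replicate 2, without replicate 3 or without DTP replicate 1, and 0 and 3 without DTP replicate 2. Without long washout replicate 1 the counts were 18 and 14, and without DTP replicate 3 they were 18 and 13. MKI67, the marker of cycling cells, was at 512, 498 and 472 CPM under DMSO, at 90.8, 63.8 and 142 CPM in DTPs and at 217, 385 and 271 CPM after the long washout. It lay above the DTPs (1.55, adjusted p = 0.0264) and below DMSO (-0.76 ± 0.18, adjusted p = 0.00830). CCNB1 (cyclin B1) overlapped between long washout and DMSO, at 77.7, 156 and 118 against 131, 115 and 119.9 CPM (-0.06, adjusted p = 0.855). RRM2, a subunit of ribonucleotide reductase, was at 525, 531 and 436 CPM under DMSO and at 124, 240.0 and 214 CPM after the long washout (-1.36 ± 0.21, adjusted p = 0.000952).

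The 3 long washout libraries differed among themselves here. The summed G2/M level was 59.0%, 104% and 79.3% of the DMSO mean in replicates 1, 2 and 3, and the summed G1/S level was 49.8%, 68.6% and 64.8%. In the short washout, 24 h after drug removal, the G1/S level was already at 64.8%, 67.4% and 69.4%. The G2/M level was then at 58.6%, 36.3% and 37.8%. Long washout replicate 1, the one nearest to the DTPs, was the lowest of the 3 long washout libraries for both lists. Without it 4 G2/M genes were below DMSO and 1 above, and the count below was 2 without DMSO replicate 1 or without DMSO replicate 2. The replication helicase genes MCM7 (-0.86 ± 0.15) and MCM3 (-0.83 ± 0.13) and the clamp gene PCNA (-0.61, adjusted p = 0.00657) were among the 14 G1/S genes still lower. EZH2 and DNMT1, chromatin enzymes whose level follows the cell cycle, were lower too (-0.85 ± 0.13 and -0.73 ± 0.11), at 43.6 to 61.1 and 133 to 168 CPM against 90.5 to 97.6 and 234 to 271 CPM under DMSO.

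**Figure D4:**
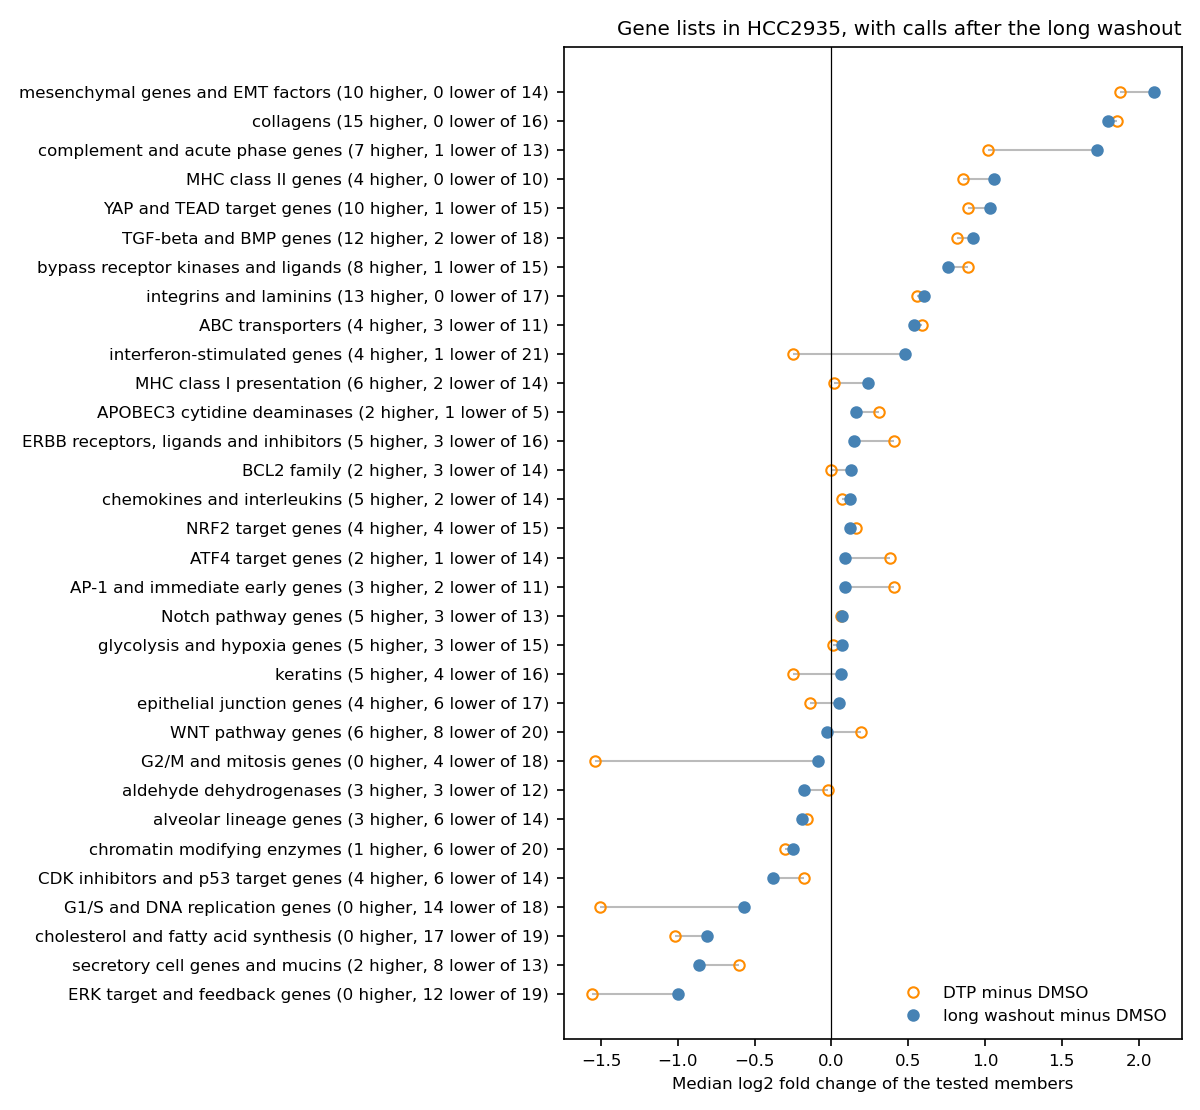
Median log2 fold change against DMSO (horizontal axis) of the tested members of each pathway list (vertical axis), with open orange circles for DTPs and filled blue circles for the long washout, which share the DMSO libraries. The G2/M list moved from -1.54 to -0.09 and the G1/S list from -1.51 to -0.57, whereas collagens (1.86 and 1.80) and cholesterol and fatty acid synthesis (-1.02 and -0.81) stayed near their DTP value.

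Lipid synthesis stayed low. Of 19 genes of cholesterol and fatty acid synthesis 17 were below DMSO and none above, and 16 of them had been below in DTPs too. SCD, the stearoyl-CoA desaturase, was at 409, 336 and 270.2 CPM under DMSO and at 105, 99.4 and 116 CPM after the long washout, without overlap (-1.66 ± 0.15, adjusted p = 3.93e-05). FASN (fatty acid synthase) went from 264 to 355 CPM down to 132 to 174 CPM (-1.05 ± 0.14, adjusted p = 0.000392). SREBF1, the transcription factor of the pathway, was lower by about as much (-1.01 ± 0.17, adjusted p = 0.00143). Most of these decreases were below 2-fold: 4 of the 17 passed when a 2-fold change was required.

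Aldehyde dehydrogenases, detoxifying enzymes used as markers of tolerant and stem-like tumour cells, had a median near 0, yet the ALDH1A genes were higher. ALDH1A1 was at 2.95, 1.84 and 1.94 CPM under DMSO, at 8.96, 8.21 and 6.64 CPM after acute treatment and at 52.8, 38.5 and 78.2 CPM after the long washout (4.65 ± 0.30, adjusted p = 6.69e-06). ALDH1A3, the most abundant of these, went from 506, 623 and 389 CPM to 1743, 2078 and 1984 CPM (1.94 ± 0.17, adjusted p = 2.97e-05). Among 15 glycolysis and hypoxia genes 5 were higher and 3 lower, beside 21.0% and 18.9% of all genes. The oxygen sensor gene EGLN3 was at 3.62 to 5.76 CPM under DMSO and 54.7 to 76.2 CPM after the long washout (3.78 ± 0.20, adjusted p = 2.36e-06), and the glucose transporter gene SLC2A3 was higher by 2.77 ± 0.29. HK2 (hexokinase 2) was lower, at 29.7, 35.1 and 45.7 against 69.9, 74.3 and 69.7 CPM (-0.95 ± 0.15, adjusted p = 0.00108), but above the DTPs (1.11, adjusted p = 0.0221). The multidrug transporter gene ABCB1 was low throughout, at 0 to 0.166 CPM under DMSO and 0.953 to 3.99 CPM after the long washout (4.37 ± 0.82). It passed the filter on low counts through the long washout libraries.

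Within Notch and WNT signalling the genes moved in both directions. The receptor gene NOTCH3 was at 289, 307 and 315 CPM under DMSO and at 62.8, 43.7 and 55.5 CPM after the long washout (-2.48 ± 0.14, adjusted p = 2.71e-06), and the ligand gene DLL4 was lower with it (-1.94 ± 0.28). The ligand gene JAG1 was higher, at 206, 216 and 238 against 80.8, 70.2 and 85.8 CPM (1.48 ± 0.11, adjusted p = 1.33e-05). Of 13 Notch genes 5 were higher and 3 lower, and of 20 WNT genes 6 were higher and 8 lower. Over all genes tested 21.0% were higher and 18.9% lower, and the medians of the 2 lists were 0.07 and -0.03. LGR5, the R-spondin receptor known from intestinal stem cells, was at 0.711 to 0.802 CPM under DMSO and at 16.5, 11.8 and 7.87 CPM after the long washout (4.00 ± 0.33, adjusted p = 2.47e-05). The ligand genes WNT10A (2.47 ± 0.11) and WNT5A (2.41 ± 0.21) were higher as well.

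Genes of immunity gave smaller groups of calls, beside 21.0% of all genes tested that were higher and 18.9% that were lower. Of 14 MHC class I presentation genes 6 were higher and 2 lower, with B2M, the light chain of class I molecules, at 1663, 1491 and 1841 CPM under DMSO and 2683, 2813 and 2993 CPM after the long washout (0.77 ± 0.11, adjusted p = 0.000638). CD74, the invariant chain of class II molecules, went from 13.8, 9.86 and 14.6 CPM to 71.0, 108 and 70.2 CPM (2.70 ± 0.21, adjusted p = 1.75e-05). Of 21 interferon-stimulated genes 4 were higher, about the share over all genes, and 1 was lower. The count above DMSO was 2 without DMSO replicate 2 or long washout replicate 3 and 10 without DMSO replicate 3. CXCL8 (interleukin 8) was lower, at 31.7, 37.6 and 99.1 against 4.98, 7.97 and 3.62 CPM (-3.33 ± 0.46, adjusted p = 0.000461). IL1A was higher, at 27.9, 17.1 and 29.9 against 3.37, 2.36 and 3.22 CPM (3.07 ± 0.25, adjusted p = 2.4e-05). Of 11 immune cell markers 4 passed the filter, none was higher, and the summed level of the list was 67.6 to 95.4 CPM under DMSO and 24.5 to 44.3 CPM after the long washout, most of it from CD68, a lysosomal protein. PTPRC, the defining leukocyte gene, was at 0.175 ± 0.114 CPM after the long washout.

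A smaller class consisted of genes called after the long washout without a call in DTPs, 462 higher and 365 lower. AXL and EPGN belonged to it, and so did the hair keratin gene KRT81, at 3.57, 3.92 and 1.75 CPM under DMSO, 1.85, 5.18 and 4.30 CPM in DTPs and 13.4, 10.7 and 13.0 CPM after the long washout (2.00, adjusted p = 0.000601). The basal keratin gene KRT5 had been higher in DTPs and was higher again after the long washout, at 8.31, 2.43 and 6.80 CPM against 1.25, 1.59 and 0.822 CPM in DTPs and 0.166 to 0.472 CPM under DMSO (2.24 against DTPs, adjusted p = 0.0342). KRT13 showed the same order, with 221, 154 and 424 CPM after the long washout, 49.5, 97.5 and 109.6 CPM in DTPs and 50.8, 49.1 and 43.6 CPM under DMSO. A further 65 called genes passed the filter on low counts only with the long washout libraries, so the filter fixed their direction.

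In 5 genes the 2 calls against DMSO pointed in opposite directions. SCNN1B, a subunit of the epithelial sodium channel, was at 8.19, 9.06 and 8.29 CPM under DMSO, at 40.9, 47.5 and 50 CPM after acute treatment, at 16.4, 17.5 and 12.3 CPM in DTPs and at 4.43, 3.25 and 4.94 CPM after the long washout. All long washout libraries lay below all DMSO libraries (-1.01 ± 0.22 against DMSO, adjusted p = 0.00608). TMEM125 (-0.72 ± 0.15), RAB15 (-0.62 ± 0.16) and INPP5K (-0.34 ± 0.12) followed the same course. IFI27, an interferon-inducible gene, went the other way, at 22.7, 17.3 and 23 CPM after the long washout against 13.6, 11.2 and 16.1 CPM under DMSO and 7.81, 9.05 and 6.77 CPM in DTPs (0.63 ± 0.18, adjusted p = 0.0198). The calls of IFI27 and INPP5K were lost when single libraries were left out, and that of RAB15 when the median of its chromosome was taken out.

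The other lines gave a measure of what belonged to HCC2935. The log2 change from DMSO to long washout in HCC2935 was set against the mean of the same change in PC9, HCC827 and H1975, over 24 libraries, and 4783 of 16017 genes (29.9%) differed, 2404 with a higher and 2379 with a lower value in HCC2935. Long washout lasted 7 days in PC9, 4 days in HCC827 and 3 days in H1975, so the line and the time without drug cannot be told apart. Within each line, 30.6% of genes were called in PC9, 39.7% in HCC827 and 55.0% in H1975. Of 18 G2/M genes 15 had a higher value in HCC2935 and none a lower, with median log2 fold changes from DMSO of -0.44 in PC9, -1.47 in HCC827 and -2.00 in H1975. Of 17 integrin and laminin genes 9 had a higher and 1 a lower value in HCC2935, and of 16 mesenchymal genes 7 had a higher and none a lower value. The secretory list went the opposite way, with 6 of 15 genes lower in HCC2935 and 1 higher, and medians of 1.17 in PC9, 0.91 in HCC827 and 0.72 in H1975. Cholesterol synthesis gave 1 lower and no higher value among 19 genes, with medians below 0 in each of the 4 lines. In PC9, HCC827 and H1975 the medians were 0.12, 2.05 and 0.57 for collagens and -0.12, 1.41 and 0.62 for mesenchymal genes. They were 0.60, 0.83 and 1.18 for YAP and TEAD targets and -1.03, -0.30 and -1.34 for ERK targets. These medians had the same sign as in HCC2935, except the mesenchymal median in PC9. Of 17 collagens 6 had a higher and 0 a lower value in HCC2935. The counts were 5 and 3 of 15 YAP and TEAD targets and 2 and 3 of 20 ERK targets. Among the genes reported here, ART4 (6.70) and the sodium/calcium exchanger gene SLC24A3 (6.0) had the largest positive and MUC5AC (-6.46) and COL21A1 (-6.27) the largest negative log2 differences from the other lines. The value of ART4 rests on 1 DMSO count in HCC2935 and is a description.

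Genes on some chromosomes tended to move in the same direction. For scale, the median absolute log2 fold change over all genes tested was 0.37. Of 14199 genes tested, 13994 had a position in the RefSeq table on GRCh38.p14. The median log2 fold change of a chromosome ran from -0.26 on chromosome 14 to 0.41 on chromosome 4, and on chromosome 4, 235 of 520 genes were higher and 32 lower. In all 9 DTP, short washout and long washout libraries the medians of chromosomes 4, 5, 8, 11 and 15 lay at least 0.1 above and those of 6, 10 and 14 at least 0.1 below the DMSO mean on the log2(CPM + 1) scale. In the acute libraries the same 8 chromosomes, chosen for these late values, lay between -0.05 and 0.05, and all chromosomes ran from -0.15 on chromosome 18 to 0.18 on chromosome 19. Other lines had chromosome medians of their own after the long washout, from -0.12 to 0.17 in PC9, from -0.18 on chromosome X to 0.25 on chromosome 20 in HCC827 and from -0.31 on chromosome 7 to 0.18 on chromosome 11 in H1975. Chromosome 4 stood at 0.01, -0.07 and 0.07 in these lines.

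**Figure D5:**
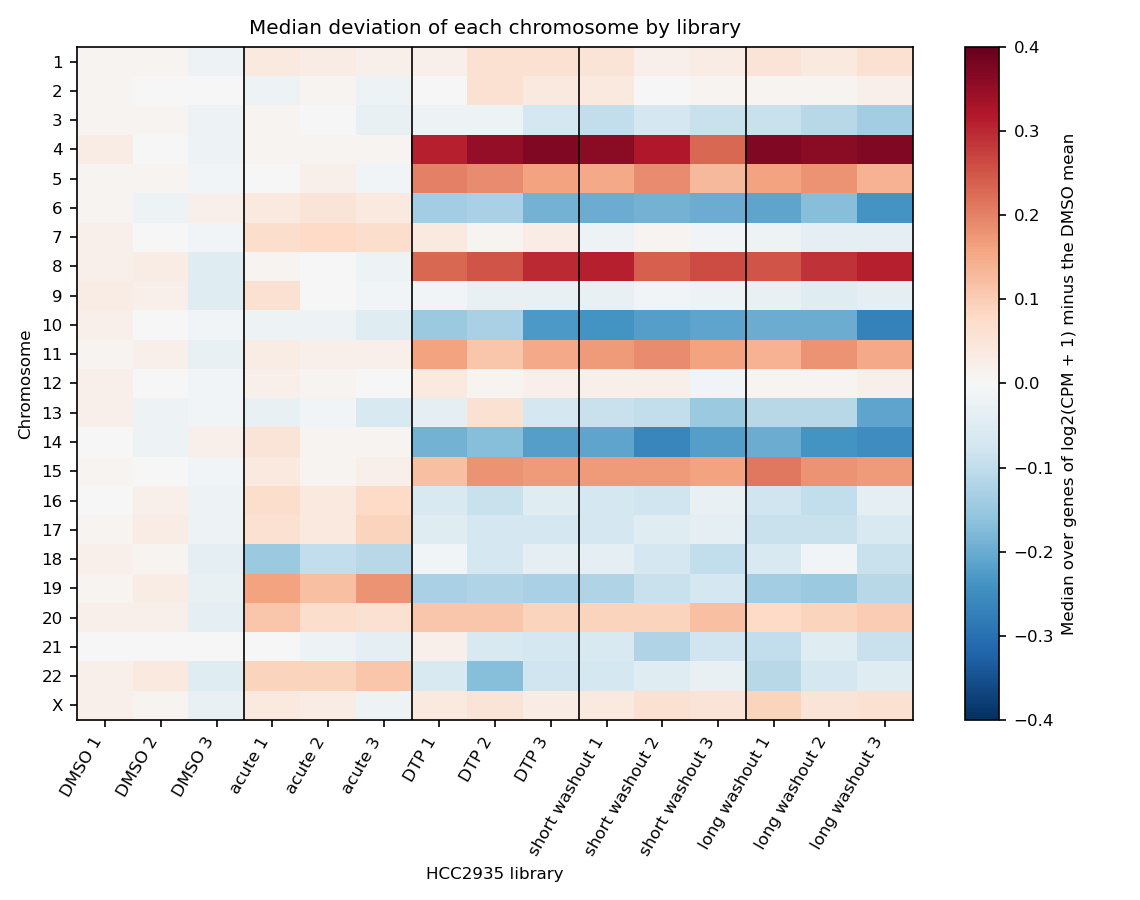
Median over the genes of each chromosome (vertical axis) of log2(CPM + 1) minus the DMSO mean, in each of the 15 HCC2935 libraries (horizontal axis), with red above and blue below 0. Chromosomes 4 and 8 were between 0.23 and 0.37 and chromosome 14 between -0.26 and -0.17 in every DTP and washout library, and all 3 lay between -0.02 and 0.05 in the acute libraries.

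Within chromosome 11 the sign changed along its length. With limits set after the values were seen, the 255 tested genes that start in the first 50 Mb had a median log2 fold change of 0.40, the 313 between 50 and 80 Mb one of -0.27 and the 196 between 90 and 130 Mb one of 0.56. Of these, 126, 30 and 107 were higher and 12, 120 and 6 lower, the DTP medians were 0.41, -0.32 and 0.58, and the acute medians were 0.05, -0.01 and 0.06. The median over 10 Mb bins with at least 20 genes reached 0.2 in size in 94 of 241 bins after the long washout and in 31 after acute treatment. When the median of each chromosome was taken out of the fold changes, in a test added after the data were seen, 5232 genes were called against DMSO, 4610 of them among the 5663, and 4438 genes had not returned. That test took out 1 value per whole chromosome. Shifts that change along a chromosome, as on chromosome 11, remained in it, so it does not give the counts without shifts by position. What set the chromosome medians was not tested.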

How the data were processed

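Estimated counts of 19712 genes, not normalized between libraries, and matching log2 TPM values (0.01 added before the log) were the 2 tables the authors deposited. The submitters' processing notes name hg38, HISAT2 2.1.0 and Salmon 0.8.2, whose roles and annotation are not given in the sources used here. The labels gave every group, dose and time and call the replicates biological.

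Counts were rounded and tested by edgeR 4.0.16 under R 4.3.3 (TMM, filterByExpr, quasi-likelihood test, Benjamini-Hochberg adjustment over all genes tested), each contrast on its own 6 libraries and the difference from the other 3 lines on 24. Whether counting used strand is not given in the sources used here, so overlapping and antisense genes may share counts. On simulated data for long washout against DMSO, with 14034 genes of which 200 were changed, 64% of 2-fold and 92% of 4-fold changes were recovered. Of the calls there, 5.45% were false. In the real comparison 39.9% of genes were called, so these rates need not hold for it. Named genes were EGFR, the 12 highest and 12 lowest called genes (mean 1 CPM or more, no overlap of the groups), the 8 highest and 8 lowest not returned, up to 4 of each direction called oppositely to DTPs, up to 4 of each list, list members that define it, and the 5 highest and 5 lowest differences from the other lines. The members and lists were chosen with earlier results of these data known. Alternatives were DESeq2 1.42.0, limma 3.58.1 on the log2 TPM values, RLE factors or library sizes alone, no filter or a minimum of 10 counts per library, a replicate block, an adjusted p under 0.01, a 2-fold minimum, all HCC2935 (or all 60) libraries in the fit, each library left out, and, added later, chromosome medians removed. Sequences are from RefSeq. Some genes that the rule names are not reported here. Other list members given with values were chosen after these were seen.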

Additional observations from a re-analysis of the deposited data

Results flagged for a closer look

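The effect of the long washout differed between HCC2935 and the mean of PC9, HCC827 and H1975 in 4783 genes by the interaction test in edgeR (adjusted p under 0.05, n = 24 libraries), with the line and the time without drug tied together. Among the genes named by the rule, the log2 difference was above 0 for ART4 (6.70), SLC24A3 (6.0), ADAMTS15 (5.80), CRTAC1 (5.58), RNF150 (3.71), ATOH8 (3.26), ACKR3 (2.15) and EGFR (1.20). It was below 0 for MUC5AC (-6.46), COL21A1 (-6.27), C9orf152 (-6.12), CRACR2A (-5.58), ADAMTS14 (-5.49), NAPSA (-5.00), MMP1 (-4.89), SHE (-4.66), KRT6A (-4.36), IL9R (-3.83), RGS17 (-3.08), KRT78 (-2.90), INPP5K (-1.42), TMEM125 (-1.15) and RAB15 (-0.98). ART4 and RNF150 had few counts under DMSO in HCC2935, so their differences are a description. Groups of 3 libraries are too small for a test of single outlying samples.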

How the results depend on the processing

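The 5 main counts kept within 1.5 times their value under other scalings, filters, limma and wider fits, except the comparison of long washout with DTPs, and no named gene changed direction. Of the values of named genes, 78 lost their call with a library left out and 43 under other settings. An adjusted p under 0.01 left 3396 genes against DMSO, 2882 not returned, 9 against DTPs and 2943 that differed between lines. A 2-fold minimum left 2067, 1627 (in both contrasts), 274 and 1877, and 2845 in DTPs against DMSO. Long washout against DTPs gave 1697 genes with DESeq2 and 1758 with all HCC2935 libraries in the fit. Leaving out a library gave 4306 to 5230 genes against DMSO, 3643 to 4632 not returned, 6354 to 7212 in DTPs, 17 to 1837 against DTPs and 4044 to 5011 between lines. With a replicate block 5035 genes were called against DMSO and 38 against DTPs. The numbers do not pair the libraries, since same-numbered deviations of long washout and DMSO correlated at -0.0476, 0.0108 and -0.0834. Genes with few DMSO counts have wide intervals at this depth. The cause of these differences was not tested.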

Other observations

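Squamous and basal markers split after the long washout, with 2 of 8 tested genes higher and 4 lower, beside 21.0% and 18.9% of all genes tested. SOX2, a transcription factor of basal and stem-like cells, was at 26.4, 21.2 and 33.7 CPM under DMSO and at 3.4, 2.56 and 3.37 CPM after the long washout (-3.12 ± 0.22, adjusted p = 9.7e-06, edgeR), while KRT5 was higher. Alveolar genes also split, with 3 of 14 higher, about the share over all genes, and 6 lower. CAV1 (2.33 ± 0.25) and GATA6 (1.92 ± 0.17) were higher, while SLC34A2, the phosphate transporter of type II cells, had been higher in DTPs (1.22) and was back at 15.9, 12.4 and 6.50 CPM against 11.8, 9.53 and 18.9 CPM under DMSO. Of 13 complement and acute phase genes 7 were higher and 1 lower, among them C1S (2.53 ± 0.45, adjusted p = 0.00199).

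Among 14 tested genes of the CDK inhibitor and p53 list 4 were higher and 6 lower, with ZMAT3 higher (2.00 ± 0.19) and GDF15 lower (-1.31 ± 0.19), and 3 were lower when DMSO replicate 2 was left out. CDKN1A (p21) stayed above DMSO, at 417, 372 and 371 against 292, 306 and 253 CPM (0.45, adjusted p = 0.00759). The histone demethylase gene KDM5B was at 160.3, 104 and 125 CPM after the long washout and 67.3, 72.5 and 85.3 CPM under DMSO (0.80 ± 0.16, adjusted p = 0.00358). The cytidine deaminase gene APOBEC3G was higher (2.35 ± 0.30) and APOBEC3B lower (-0.91 ± 0.26, adjusted p = 0.0196, lost without long washout replicate 3). Over all genes tested 21.0% were higher and 18.9% lower, and the remaining lists are given as counts beside that. The BCL2 family gave 2 higher and 3 lower of 14 genes, the ATF4 targets 2 and 1 of 14, the NRF2 targets 4 and 4 of 15, the immediate early genes 3 and 2 of 11, the epithelial junction genes 4 and 6 of 17, the MHC class II genes 4 and 0 of 10, the chemokines and interleukins 5 and 2 of 14, the keratins 5 and 4 of 16, the chromatin enzymes 1 and 6 of 20, the ABC transporters 4 and 3 of 11 the aldehyde dehydrogenases 3 and 3 of 12, the endothelial markers 1 and 0 of 3, the neuroendocrine markers 0 and 1 of 3 and the mitochondrially encoded genes 2 and 4 of 13. Several of these counts moved by more than 1.5 times when a library was left out: immediate early genes above DMSO were 0 without DMSO replicate 1, DMSO replicate 2 or long washout replicate 1 and 1 without long washout replicate 3, junction genes above DMSO were 2 without DMSO replicate 1, DMSO replicate 2, long washout replicate 2 or long washout replicate 3, and NRF2 targets below DMSO were 2 without DMSO replicate 1, DMSO replicate 2 or long washout replicate 1.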
